A study of Mus musculus with 2 samples.

Results

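The osteoclasts of the embryonic mouse coronal suture were picked out of single-cell RNA libraries as 138 cells of 16977, of which 77 of 8210 cells came from the library of embryonic day E15.5 and 61 of 8767 from that of E17.5. The coronal suture lies between the frontal and parietal bones of the skull, and the study dissociated sutures of wild-type C57/BL6 embryos to list the cell types around the growing bone edges. The E15.5 library came from 10 pooled sutures digested with collagenase II and dispase and depleted of dead cells with a kit. For E17.5, 16 sutures of 2 litters were taken in 3 batches, digested with collagenase IV and sorted against debris, doublets and dead cells. By the paper, a separate library was prepared from each of the 3 E17.5 batches. They were deposited as 1 sample, and library below means the deposited sample of a stage. With 1 sample a stage no difference between stages was tested. Stage, enzyme, sorting, embryos and the list of genes used for counting differ together and cannot be told apart. All intervals are 95% intervals that cover counting error only.

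A barcode was taken as an osteoclast if the submitters had given it no osteogenic or mesenchymal cluster label, if it had at least 1000 unique molecular identifiers (UMIs, counted transcripts) and 1000 genes with at most 7.5% mitochondrial UMIs and at most 3% UMIs of each of the Hbb and Hba globin families, and if it held at least 20 UMIs of *Acp5* and *Mmp9* together and at least 1 of *Atp6v0d2*. Those 3 genes chose the cells and are no result here. Genes that travel with them are higher in the chosen cells by that choice, so the comparisons with other cells are descriptions. The members of E15.5 with 20 to 39 UMIs of *Acp5* and *Mmp9* numbered 26, with a median of 19.5 *Ctsk* UMIs, and those of E17.5 numbered 15, with a median of 4. Just outside, 22 cells of E15.5 and 3 of E17.5 held 10 to 19 UMIs of the pair with *Atp6v0d2*, with medians of 1 and 5 *Ctsk* UMIs.

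Osteoclasts are the cells that resorb bone. They arise from the myeloid lineage when the growth factor CSF1 and the cytokine RANKL act on precursors that carry their receptors, and precursors fuse into cells with many nuclei. An active osteoclast attaches to bone through the integrin αvβ3, pumps protons with a vacuolar ATPase and lets chloride follow, so that mineral dissolves, and secretes cathepsin K to cut the exposed collagen. In the skull they shape the inner and outer faces of the growing bones. The number of nuclei per cell is not recorded in these data.

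Members carried more UMIs than the other cells. The rule asks for a fixed count of UMIs, which deep barcodes meet more readily, and its part in this difference was not tested. The median was 19928 UMIs per osteoclast at E15.5, from 11596 to 34475, and 21988 at E17.5, from 3138 to 51124, against 8510 and 12302 in the labelled cells. Medians of genes detected were 4022 and 4316 per osteoclast. Levels below are UMIs summed over the cells of a group and scaled to counts per 10⁶ (CPM), from 1616714 and 1408660 UMIs of osteoclasts. They are not compared between genes, since the 3′ tag count per transcript differs among genes. Of the members, 9 at E15.5 (11.7%) and 9 at E17.5 (14.8%) had a high doublet score, as did 16.9% and 7.28% of the C1q-high cells described below. A score was called high from the 94th percentile of all cells, so these shares are no doublet rates. The libraries shared 94 barcodes, of which 1 belonged to a member, and no member was in both.

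Other kinds of cells of the same libraries served for comparison. The C1q-high cells were unlabelled cells with at least 20 UMIs of *C1qa*, *C1qb* and *C1qc*, complement genes of tissue macrophages, and numbered 302 at E15.5 and 563 at E17.5. The Lyz2-high cells, which held at least 20 UMIs of the lysozyme gene *Lyz2* and under 5 of the C1q genes, numbered 71 and 39. The labelled cells were the 5335 and 6830 osteogenic and mesenchymal cells of the submitters' table. A gene is called higher or lower below if its CPM differed at least 2-fold with Poisson intervals apart in both libraries, which is a rule of size and no test. Genes under 20 UMIs over both groups of a comparison in either library were left out of it.

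Cathepsin K was the marker that the choice of cells had not used. *Ctsk* (chr3:95499256-95509362, GRCm38) had UMIs in 75 of 77 osteoclasts at E15.5, with 0 to 315 UMIs per cell and a median of 34. At E17.5 it had UMIs in 59 of 61, with 0 to 237 and a median of 52. The level was 2378 CPM (2304 to 2455) and 2970 CPM (2881 to 3062), against 38.1 and 53.9 in C1q-high cells, 62.4 and 55.1 times as high. Labelled cells held 206 and 318 CPM. When each cell was thinned to 3000 UMIs, 83.1% (72.9 to 90.7) of the osteoclasts at E15.5 and 80.3% (68.2 to 89.4) at E17.5 still showed *Ctsk*, against 23 of 300 and 73 of 563 C1q-high cells. The barcode suffixes of E17.5, which the labels do not assign to batches, gave 1814, 3919 and 3044 CPM.

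Of the 17 macrophage markers, 13 stood under 10 CPM in osteoclasts at E15.5 and 10 at E17.5. *Mrc1* (the mannose receptor) stood at 1.86 and 4.26 CPM in osteoclasts and 774 and 981 in C1q-high cells, and *Cx3cr1* (the fractalkine receptor) at 2.47 and 3.55 against 338 and 500. Markers above 10 CPM in both libraries were *Csf1r*, the complement genes *C1qb* (26.6 and 49.7 CPM) and *C1qc* (22.3 and 39.04), and *Pf4*, platelet factor 4, at 35.3 and 85.9 CPM against 3623 and 6939. The median osteoclast held 0 UMIs of the C1q genes at E15.5, where 2 cells held 34 and 26. At E17.5 that median was 2, and 1 cell held 30. The 17 summed to 354 CPM at E15.5 (0 to 2138 per cell) and 634 CPM at E17.5 (102 to 2457). The C1q genes had chosen the C1q-high cells, and without them the other 14 summed to 296 CPM (0 to 927 per cell) and 525 CPM (69.1 to 2052), against 7133 and 13111 in C1q-high cells and 28.8 and 85.2 in labelled cells. The monocyte gene *Lyz2* was at 42.7 and 15.6 CPM, and most of its 69 UMIs at E15.5 came from a single cell. *Ly6c2* had no UMI in any member, nor did the neutrophil genes *Elane*, *Mpo*, *Ngp*, *Camp* and *Ltf*. The 10 osteoblast and fibroblast markers summed to 1251 CPM at E15.5 (56.1 to 9560 per cell) and 2993 at E17.5 (1484 to 12199), against 18651 and 25889 in labelled cells and 3098 and 3698 in C1q-high cells. Medians per cell were 396 and 2239 CPM in osteoclasts and 563 and 2445 in C1q-high cells. At E15.5 the members with the most UMIs of this list (274, 272 and 238) had a high doublet score. At E17.5 the member with the most (453) had no high score. The part of doublets in these sums was not tested. All 10 markers were lower than in labelled cells in both libraries, as were 15.1% of 13516 genes.

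**Figure D1:**
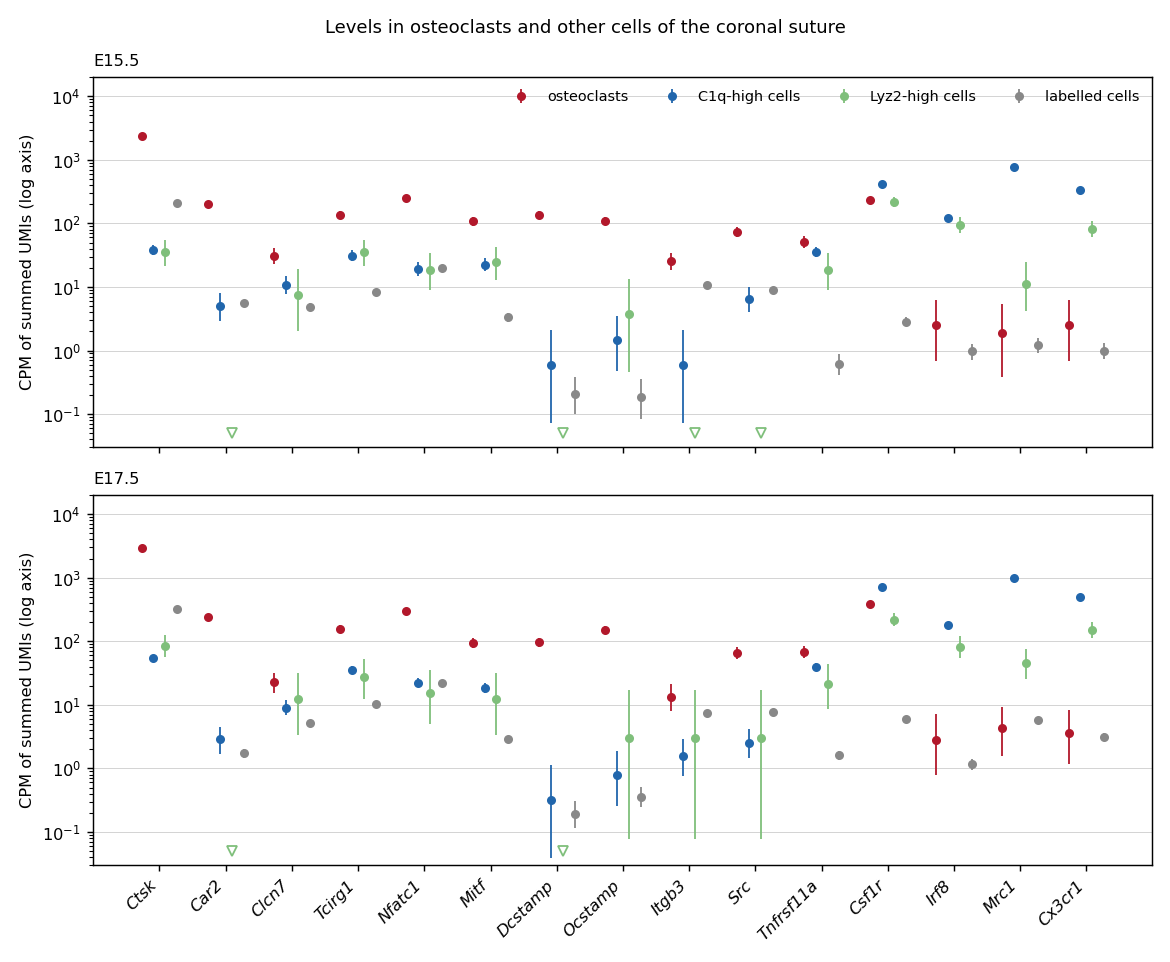
Levels of 15 genes in CPM of summed UMIs (log axis) with 95% Poisson bars in osteoclasts, C1q-high, Lyz2-high and labelled cells of each library, with open triangles for 0 UMIs. *Ctsk* stood at 2378 and 2970 CPM in osteoclasts, while *Mrc1* and *Cx3cr1* stood under 5 CPM there and at 338 to 981 CPM in C1q-high cells.

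Against C1q-high cells, 421 of 9618 genes (4.38%) were higher in osteoclasts and 842 (8.75%) lower, with a median log2 ratio over all genes of -0.08 at E15.5 and -0.09 at E17.5. The genes were grouped in lists by what osteoclasts do with them.

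Of the machinery of acid secretion, 8 of 11 measured genes were higher and 0 lower, with median log2 ratios of 2.14 and 2.15. *Car2*, the carbonic anhydrase that supplies protons, had UMIs in 61 of 77 osteoclasts at E15.5 (0 to 22 per cell, median 3) and 43 of 61 at E17.5 (0 to 38, median 2). Its level was 201 CPM (180 to 224) and 241 CPM (216 to 268), against 5.02 and 2.86 in C1q-high cells, and its values in the 3 suffixes of E17.5 were 260, 308 and 174 CPM. *Slc4a2*, the chloride-bicarbonate exchanger, stood at 129 and 86.6 CPM against 8.86 and 13.5. *Clcn7*, the chloride-proton exchanger of the ruffled border, stood at 30.9 and 22.7 CPM against 10.9 and 9.07, 2.83 (1.81 to 4.45) and 2.50 (1.57 to 3.93) times as high, with at most 5 UMIs in a cell. *Ostm1*, its partner subunit, stood at 24.1 and 31.9 CPM against 11.5 and 13.2, and its direction did not hold in the first suffix of E17.5 alone, where the log2 ratio was -0.18, nor at E15.5 with each cell thinned to 3000 UMIs, where it was -1.66. *Snx10*, a sorting nexin needed for resorption, stood at 249 and 240 CPM against 32.2 and 29.6.

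*Slc9b2*, a sodium-proton exchanger, had 0 to 15 UMIs per osteoclast at E15.5 (median 2) and 0 to 18 at E17.5 (median 4). Its levels of 142 CPM (124 to 162) and 233 CPM (208 to 259) met 0 UMIs in C1q-high cells at E15.5 and 2 UMIs (0.318 CPM) at E17.5, and 0 UMIs in Lyz2-high cells. That made it 161-fold higher at E15.5, a value that takes 3 UMIs for the empty group and has no interval, and 732-fold (201 to 6067) at E17.5. *Slc37a2*, a sugar-phosphate carrier, stood at 188 and 157 CPM against 19.2 and 22.0.

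The vacuolar ATPase couples ATP use to proton pumping and is built of a membrane sector (V0) and a cytosolic sector (V1), several subunits of which have alternative genes. Of 16 subunit genes measured besides *Atp6v0d2*, 9 were higher in osteoclasts than in C1q-high cells and 1 lower, with median log2 ratios of 1.44 and 1.12. *Tcirg1*, the a3 form of the large V0 subunit (chr19:3896050-3907133), had 0 to 9 UMIs per osteoclast at E15.5 (median 3) and 0 to 12 at E17.5 (median 3). It stood at 137 CPM (119 to 156) and 158 CPM (138 to 180) against 31.0 and 35.5. *Atp6v0a1*, the a1 form of the same subunit, went the other way, with 4 UMIs in all members at each stage. Its level was 2.47 CPM (0.674 to 6.33) and 2.84 CPM (0.774 to 7.27) in osteoclasts against 34.8 and 59.5 in C1q-high cells.

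The other higher subunits had ratios of 2.08 to 4.35. *Atp6v1a*, the catalytic subunit, stood at 300 and 267 CPM against 112 and 99.8, and its partner *Atp6v1b2* at 618 and 528 against 142 and 142. *Atp6v0e* stood at 1223 and 1337 CPM against 329 and 390. *Atp6v0d1*, the other form of subunit d, stood at 95.3 and 133 CPM against 132 and 199 and met the rule in neither direction. The alternative forms *Atp6v0a4*, *Atp6v1b1*, *Atp6v1c2*, *Atp6v1e2* and *Atp6v1g3* had 0 UMIs in all 138 members. Against Lyz2-high cells, where 6.36% of genes were higher and 7.61% lower, 10 of 14 measured subunit genes were higher. Against labelled cells, where 8.71% were higher and 15.1% lower, 12 of 20 were.

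**Figure D2:**
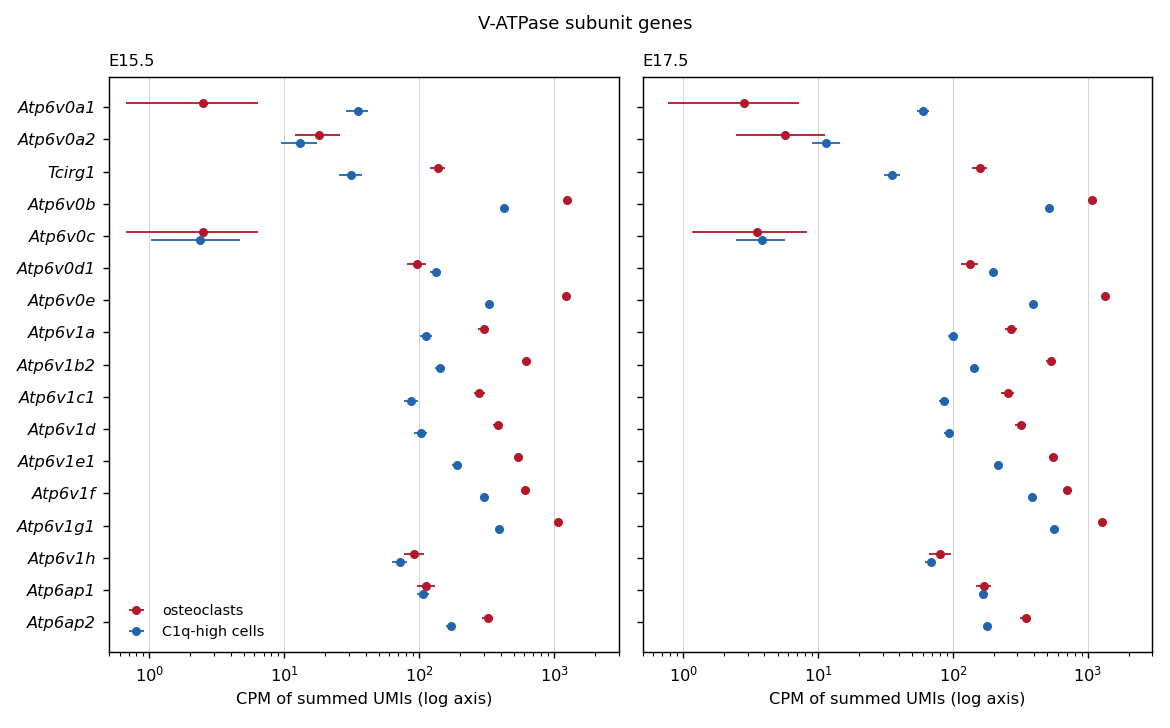
Levels of 17 V-ATPase subunit genes in CPM of summed UMIs (log axis) with 95% Poisson bars in osteoclasts and C1q-high cells. *Tcirg1* lay to the right of the C1q-high cells (137 and 158 CPM against 31.0 and 35.5) and *Atp6v0a1* to the left (2.47 and 2.84 against 34.8 and 59.5).

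Promoters of these genes are shown because a family of transcription factors to which *Mitf*, *Tfeb*, *Tfe3* and *Tfec* belong binds the E-box TCACGTG in genes of lysosomes and proton pumps. The letters were searched on both strands (the reverse is CACGTGA, and the run TCACGTGA counts on both) from 250 bases before to 50 after each start in RefSeq promoters of GRCm38.p6, where 3.77% of 32851 promoters and 4.29% of 27025 genes held them. A promoter was found for 19 of the 25 V-ATPase genes, and 4 of these held the letters (*Atp6v0b*, *Atp6v0d1*, *Atp6v0e* and *Atp6v1a*), as did 1 of 10 acid secretion genes (*Clcn7*) and 2 of 16 lysosome genes (*Lamp1* and *Mcoln1*). The related letters TCATGTG were in 3.77% of promoters, and in *Atp6v0c*, *Clcn7*, *Tpp1*, *Ppt1*, *Scarb2* and *Grn*. Of these 7 genes with TCACGTG, *Atp6v0b*, *Atp6v0e*, *Atp6v1a* and *Clcn7* were higher than in C1q-high cells, *Lamp1* was lower, and *Atp6v0d1* and *Mcoln1* were neither. A match describes the sequence and is no binding site. Capitals mark the matches in the stretches before the start, on the strand of the gene: *Clcn7* at chr17:25133141-25133390 (plus strand), *Atp6v1a* at chr16:44139310-44139509 (minus strand), *Lamp1* at chr8:13158911-13159160 (plus strand), and *Ctsk* at chr3:95498960-95499209 (plus strand), which has no match and is shown as the promoter of the leading protease.
Clcn7: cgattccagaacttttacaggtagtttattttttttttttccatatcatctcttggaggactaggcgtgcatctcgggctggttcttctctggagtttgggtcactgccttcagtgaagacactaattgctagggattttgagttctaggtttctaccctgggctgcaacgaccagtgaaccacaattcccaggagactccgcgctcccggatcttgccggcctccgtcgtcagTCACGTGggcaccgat
Atp6v1a: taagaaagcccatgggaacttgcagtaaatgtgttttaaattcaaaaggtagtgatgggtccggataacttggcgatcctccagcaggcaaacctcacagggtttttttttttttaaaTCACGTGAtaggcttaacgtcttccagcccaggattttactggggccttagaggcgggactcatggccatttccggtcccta
Lamp1: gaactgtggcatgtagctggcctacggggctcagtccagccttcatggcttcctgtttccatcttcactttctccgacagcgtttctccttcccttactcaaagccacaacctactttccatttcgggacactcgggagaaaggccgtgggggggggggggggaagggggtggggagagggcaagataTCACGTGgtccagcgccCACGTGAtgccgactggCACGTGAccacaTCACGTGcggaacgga
Ctsk: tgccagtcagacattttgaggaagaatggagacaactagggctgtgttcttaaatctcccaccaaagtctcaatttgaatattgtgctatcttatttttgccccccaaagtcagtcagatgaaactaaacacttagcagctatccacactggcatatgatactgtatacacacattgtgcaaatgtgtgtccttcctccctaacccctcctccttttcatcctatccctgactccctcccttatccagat

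Most of the proteases were lower. Of 12 measured, *Ctsk* and *Mmp14* were higher than in C1q-high cells and 7 were lower, with median log2 ratios of -1.92 and -1.89. *Mmp14*, a membrane-bound collagenase, stood at 235 CPM (212 to 260) and 199 CPM (177 to 224) against 68.8 and 31.3. The endosomal proteases of macrophages were lower, with *Ctsb* at 265 and 366 CPM against 1580 and 2692, *Ctsl* at 60.6 and 63.9 against 392 and 335, and *Lgmn* at 82.9 and 168 against 1122 and 2042. *Ctsz* was level, at 632 and 600 CPM against 625 and 551. The lysosome list had 0 of 20 genes higher and 6 lower, among them the membrane protein *Lamp1* at 111 and 199 CPM against 599 and 1082, and its median log2 ratios were -0.10 and -0.40.

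Attachment genes were mixed, with 7 of 22 higher and 3 lower and medians of 0.36 and 0.09. *Itgav* and *Itgb3* encode the chains of αvβ3. *Itgav* stood at 161 and 149 CPM against 37.8 and 22.0 in C1q-high cells. *Itgb3* (chr11:104608000-104670476) was sparse, with a UMI in 14 of 77 osteoclasts at E15.5 (at most 8 in a cell) and 12 of 61 at E17.5 (at most 4), and stood at 25.4 CPM (18.2 to 34.4) and 13.5 CPM (8.12 to 21.1) against 0.590 and 1.59. *Src*, the kinase that organises the ruffled border, stood at 74.2 and 65.3 CPM against 6.50 and 2.55, and *Cttn*, an actin regulator of podosomes, at 72.4 and 57.5 against 15.4 and 12.7. The alternative β chain *Itgb5* was lower, at 16.7 and 41.2 CPM against 34.2 and 114.

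*Dcstamp* (chr15:39745930-39760938), a membrane protein required for fusion, had UMIs in 60 of 77 osteoclasts at E15.5 (0 to 14 per cell, median 2) and 41 of 61 at E17.5 (0 to 15, median 1). Its level of 138 CPM (120 to 157) and 96.5 CPM (81.0 to 114) was 234-fold (63.9 to 1941) and 303-fold (82.4 to 2531) that of C1q-high cells, which held 2 UMIs in all in each library. *Ocstamp* (chr2:165393760-165400405), a related protein, had UMIs in 66 of 77 (median 2) and 49 of 61 (median 3) and stood at 109 CPM (93.4 to 126) and 152 CPM (132 to 174) against 1.48 and 0.796. At 3000 UMIs per cell, 28.6% and 31.1% of osteoclasts showed *Dcstamp* and 24.7% and 37.7% *Ocstamp*, against 0 of 300 and 0 of 563 C1q-high cells for *Dcstamp*. The tetraspanin *Cd9* was higher (227 and 290 CPM against 91.5 and 68.3) and *Cd81* lower (100.2 and 148 against 471 and 454). The list as a whole, with 4 of 11 higher and 1 lower, had medians of opposite sign, 0.20 and -0.58.

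**Figure D3:**
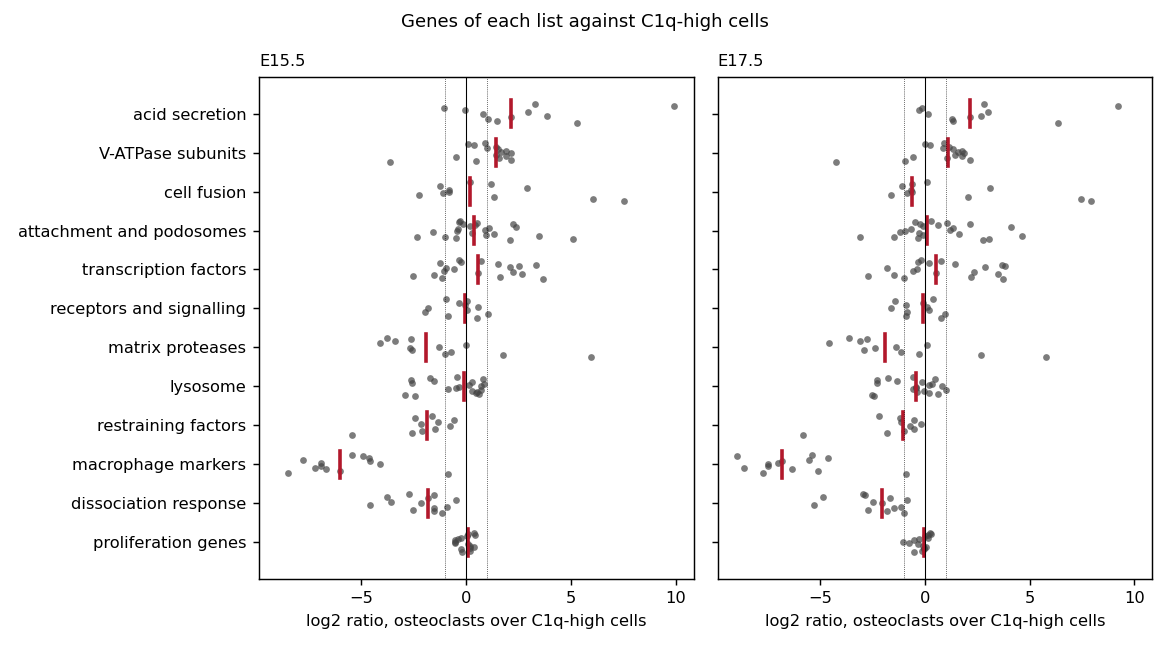
Log2 ratio of osteoclasts over C1q-high cells for each measured gene (dots) of 12 lists, with the median (red bar) and dotted lines at 2-fold. Medians were 2.14 and 2.15 for acid secretion, 1.44 and 1.12 for V-ATPase subunits and -6.03 and -6.80 for macrophage markers.

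The receptors of the differentiation signals did not separate osteoclasts from macrophages by the rule. *Tnfrsf11a*, the RANK receptor, had UMIs in 51 of 77 osteoclasts (at most 5) and 49 of 61 (at most 7) and stood at 50.7 CPM (40.3 to 63.0) and 68.1 CPM (55.2 to 83.2), 1.41 (1.05 to 1.88) and 1.73 (1.35 to 2.19) times the C1q-high level. *Csf1r*, the CSF1 receptor, stood at 231 and 383 CPM against 415 and 706. Of the 11 receptor and signalling genes measured 0 were higher and 1 lower, the adaptor *Fcer1g* at 449 and 1000.2 CPM against 1562 and 3079. Against labelled cells 10 of 12 were higher, as were 8.71% of all genes. Receptors of mature osteoclasts had few UMIs: *Calcr*, the calcitonin receptor, had a UMI in 6 members of each library (5.57 and 5.68 CPM) and *Siglec15* in 3 and 5 (1.86 and 4.26 CPM), and C1q-high cells held 0 UMIs of either.

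Transcription factors of the osteoclast program were higher in 8 of 19 cases and lower in 3, with medians of 0.55 and 0.55. *Nfatc1*, the master factor downstream of RANK, had 0 to 16 UMIs per osteoclast at E15.5 (median 5) and 0 to 15 at E17.5 (median 7), and stood at 247 CPM (224 to 273) and 295 CPM (267 to 324) against 19.2 and 22.4. *Mitf* stood at 108 and 93.7 CPM against 22.4 and 18.5, while its relatives *Tfec*, *Tfeb* and *Tfe3* met the rule in neither direction. *Prdm1*, which represses restraining factors, stood at 87.2 and 124 CPM against 15.1 and 8.59. *Ppargc1b*, a coactivator of mitochondrial genes, stood at 78.6 and 68.1 CPM against 7.68 and 5.25. The restraining factors were higher in 0 of 10 cases and lower in 5. *Irf8* had 4 UMIs in all members of each library (2.47 and 2.84 CPM) against 122 and 178 CPM in C1q-high cells.

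The lower factors were *Fos*, *Jun* and *Junb*, which also belong to a list of genes that respond to tissue dissociation. That list was lower than in C1q-high cells in 11 of 13 measured cases, with medians of -1.81 and -2.04. Its summed level was 1630 and 2473 CPM in osteoclasts (465 to 6494 and 451 to 7695 per cell) against 5753 and 7899 in C1q-high cells. Against labelled cells, where 15.1% of all genes were lower, 1 of 14 was lower, with medians of -1.40 and -0.20. Labelled cells summed to 4485 and 2428 CPM. *Fos*, required for osteoclasts to form, stood at 534 and 1014 CPM against 1190 and 2034 in C1q-high cells. The part of dissociation in these values was not tested.

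Part of the respiratory chain was higher as well. Of 80 measured nuclear genes of the respiratory chain and ATP synthase, 29 were higher than in C1q-high cells and 0 lower. The other 51 met the rule in neither direction. Over all genes 4.38% were higher and 8.75% lower. The set was added after the leading genes had been seen. Its median log2 ratios were 0.97 and 0.96, beside -0.08 and -0.09 over all genes. The summed level of the set was 53217 and 57297 CPM against 26750 and 28655. *Chchd10*, a mitochondrial protein, stood at 544 CPM (508 to 581) and 456 CPM (422 to 493) against 22.1 and 15.4. Of 13 genes of iron and energy handling 2, both of iron handling, were higher and 1 lower, with medians of 0.03 and 0.01. *Tfrc*, the transferrin receptor, stood at 131 and 60.3 CPM against 24.8 and 5.41, and *Steap4*, a metalloreductase, at 29.1 and 72.4 against 0.886 and 1.59. *Slc40a1*, the iron exporter, had 0 UMIs at E15.5 and 4 at E17.5 (2.84 CPM) against 77.1 and 176 CPM.

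Of the secreted factors by which osteoclasts act on osteoblasts and vessels, 4 of 13 measured were higher and 3 lower, with medians of 0.96 and 0.97. *Sema4d*, which acts on osteoblasts, stood at 71.8 CPM (59.3 to 86.1) and 85.9 CPM (71.3 to 103) against 14.8 and 10.3, and *Pdgfb* at 24.7 and 24.1 against 7.38 and 4.46. *Igf1* (50.1 and 14.2 CPM against 129 and 189), *Tgfb1* and the chemokine *Cxcl16* were lower.

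Outside the lists, the genes with the highest ratios to C1q-high cells were *Krt7*, *Rufy4*, *Mt3*, *Serpind1*, *Cst7*, *Dusp9*, *Bdh2*, *Chchd10*, *Coq8a* and *Spry1*. *Krt7*, a keratin of simple epithelia, had UMIs in 29 of 77 and 34 of 61 osteoclasts and stood at 45.8 CPM (35.9 to 57.5) and 75.2 CPM (61.6 to 91.0). C1q-high cells held 0 and 1 UMIs of it, so it was 51.7-fold higher at E15.5 with 3 UMIs taken for the empty group. *Rufy4* stood at 42.1 and 93.7 CPM with 0 and 1 UMIs in C1q-high cells, and *Mt3*, a metallothionein, at 71.8 and 214 CPM with 1 and 3. The value of *Mt3* varied among the suffixes of E17.5, at 29.7, 466 and 145 CPM. The lowest were *C5ar1*, *Pld4*, *Ccl12*, *Fcrls*, *Adap2*, *Slco2b1*, *Gpr34*, *Slc15a3*, *Ms4a6b* and *Fcgr3*, genes at 34.8 to 1099 CPM in C1q-high cells and at most 9.94 CPM in osteoclasts. Set against all other kept cells, where 6.89% of genes were higher and 14.7% lower, the leading genes were *Serpind1*, *Dcstamp*, *Ocstamp*, *Krt7*, *Slc9b2*, *Rufy4*, *Slc37a2*, *Chchd10*, *Pstpip1* and *Shtn1*. Of the 50 leading genes of each library in that comparison, 38 (76% of each) were shared.

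The osteoclasts were not uniform. *Ctsk* ran from 0 to 117 UMIs per 10000 at E15.5 (median 17.7) and from 0 to 87.9 at E17.5 (median 26.5). Members above the median of their library (38 and 30 cells) were set against the rest (39 and 31). Of 5658 genes 43 (0.76%) were higher in the Ctsk-high group in both libraries and 29 (0.513%) lower, with medians over all genes of -0.04 and -0.09.

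Higher genes included 4 of 9 measured genes of the acid secretion list, whose medians were 1.07 and 1.02. Of 14 measured V-ATPase genes 0 met the rule, with medians of 0.71 and 0.77. *Snx10* stood at 409 CPM in the Ctsk-high group against 99.1 in the rest at E15.5 and at 438 against 91.8 at E17.5. *Slc9b2* stood at 201 against 87.2 and 365 against 134. *Ckb*, the brain-type creatine kinase, stood at 590 against 117 and 1049 against 117, and a single E17.5 cell with 148 *Ckb* UMIs contributed to this. Without the cell richest in *Ckb*, the Ctsk-high values were 524 and 825 CPM. *Mt3* stood at 139 against 9.55 and 478 against 17.4. *Apoe*, *Lgals3*, *Steap4*, *Hexa* and *Spp1* were also higher.

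Lower genes included the replication factors *Pcna* (50.1 against 106 CPM and 28.2 against 88.1) and *Mcm3* (42.4 against 130 and 24.9 against 96.8), the 2 of 16 proliferation genes that met the rule. Genes that met it outside that list included *Uhrf1*, *Clspn*, *Asf1b* and *Ccnd1*. The nucleolar protein *Nop58* stood at 98.8 against 204 and 59.7 against 136, and *Tgfbi*, a matrix protein, at 11.6 against 38.2 and 36.5 against 125. The median log2 ratio over the proliferation list was -0.44 at E15.5 and -2.33 at E17.5.

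Over cells thinned to 3000 UMIs, Spearman's rho of *Ctsk* with the summed V-ATPase genes was 0.61 (77 cells) and 0.73 (61 cells), with *Ckb* 0.51 and 0.61, and with the proliferation list -0.36 and -0.65. With *Nfatc1* it was -0.04 and 0.19, and with the depth before thinning -0.02 and -0.32. The cells of each value share a library and these are descriptions.

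**Figure D4:**
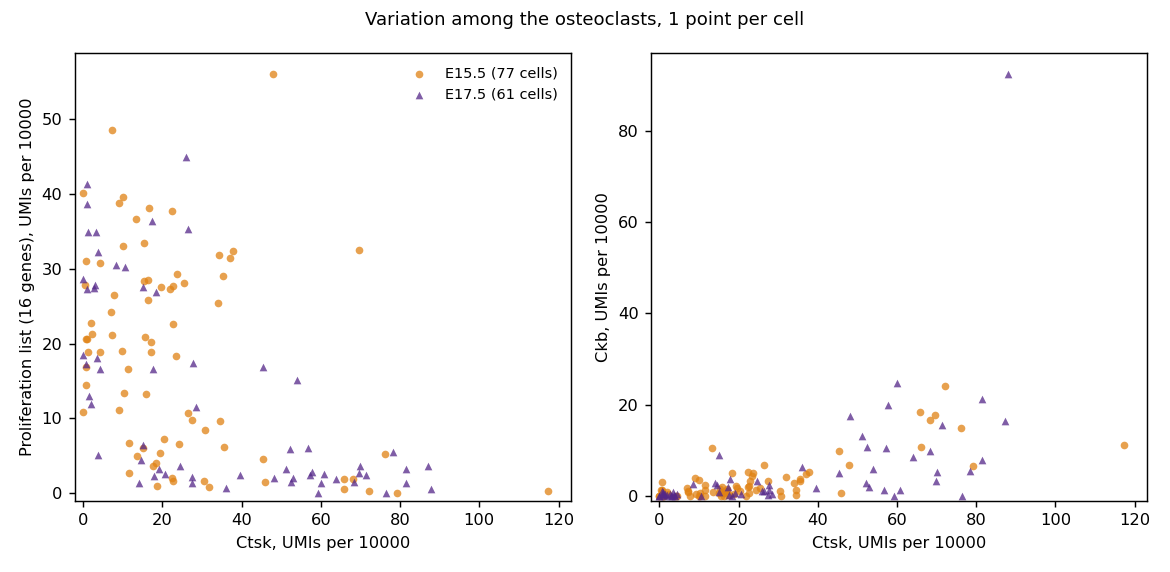
Each point is an osteoclast, with *Ctsk* on the x axis and the summed 16 proliferation genes (left) or *Ckb* (right) on the y axis, in UMIs per 10000. Cells with high *Ctsk* at E17.5 had few proliferation UMIs, and 1 cell reached 92.3 *Ckb* UMIs per 10000.

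Some cells that met the osteoclast rule carried cycle genes. At least 3 UMIs each of *Mki67* and *Top2a*, both made in dividing cells, were found in 25 of 77 osteoclasts at E15.5 (32.5%, with an interval from 22.2 to 44.1) and in 11 of 61 of the later library, a share with an interval from 9.36 to 30.0. Of these, 12 lay in the Ctsk-high group at E15.5 and 0 at E17.5, where they held 1048 CPM of *Ctsk* against 3611 in the other members. A high doublet score marked 4 of the 25 and 5 of the 11, and the part of doublets was not tested. With depth made equal, the intervals of osteoclasts and C1q-high cells overlapped. At 3000 UMIs per cell, *Mki67* was seen in 22.1% (13.4 to 33.0) and 11.5% of osteoclasts and in 23.3% (18.7 to 28.5) and 13.9% of C1q-high cells. *Top2a* was seen in 35.1% (24.5 to 46.8) and 26.2% (15.8 to 39.1) of osteoclasts and in 30.7% (25.5 to 36.2) and 19.2% (16.01 to 22.7) of C1q-high cells. Of the 16 proliferation genes 0 were higher or lower than in C1q-high cells, with medians of 0.07 and -0.05.

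Osteoclasts made up 0.938% of the E15.5 cells, with an interval from 0.741 to 1.17. For E17.5 the share was 0.696%, with an interval from 0.533 to 0.893, which put it at 0.742 times the earlier one (interval 0.521 to 1.05). The interval includes equal shares, and the first suffix of E17.5 alone gave 1.18 (0.657 to 2.02). Of unlabelled cells, from which the members were drawn, the later share was 1.18 (0.826 to 1.67) times the earlier, and the suffixes gave 2.14 (1.19 to 3.66), 0.942 (0.552 to 1.54) and 1.06 (0.636 to 1.71). Of osteoclasts and C1q-high cells together, they were 20.3% (16.4 to 24.7) in the earlier library against 9.78% (7.56 to 12.4) in the later, and the later share was 0.481 (0.338 to 0.682) of the earlier. Within the suffixes that value was 0.754 (0.418 to 1.29), 0.407 (0.238 to 0.666) and 0.437 (0.262 to 0.704). The sorting of E17.5 and the enzymes could set these shares, and their part cannot be told apart from that of stage. The C1q-high cells were chosen by a fixed count of 20 UMIs, and their *C1qa* level was 1358 CPM at E15.5 and 3370 at E17.5. The part of that limit in the share of osteoclasts and C1q-high cells was not tested.

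**Figure D5:**
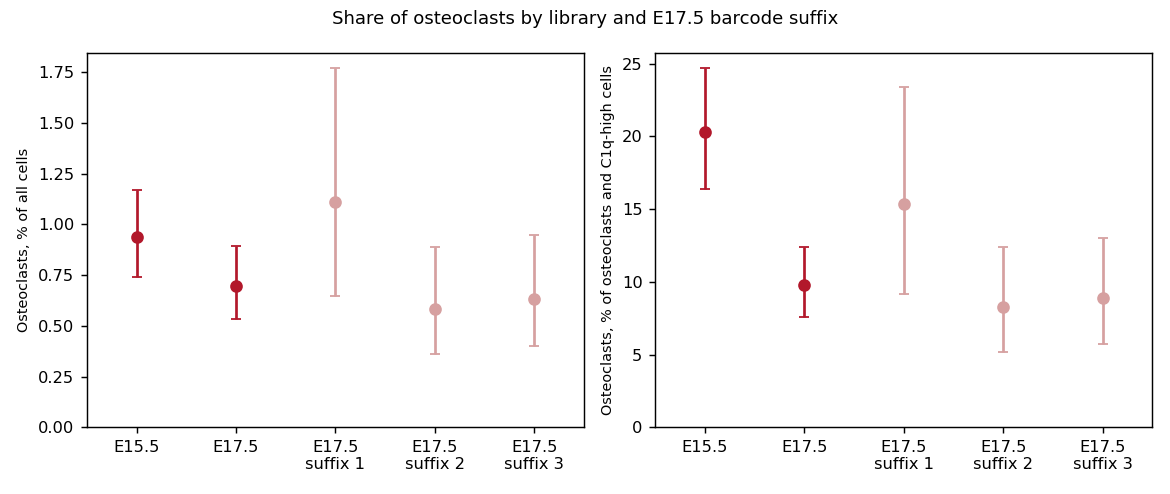
Share of osteoclasts among all cells (left) and among osteoclasts and C1q-high cells (right), in percent with exact binomial 95% intervals, by library and by barcode suffix of E17.5. The right panel shows 20.3% at E15.5 and 9.78% at E17.5, with 15.3%, 8.27% and 8.88% in the suffixes.

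Between stages, 208 of 5689 genes (3.66%) were at least 2-fold higher in osteoclasts at E17.5 and 258 (4.54%) lower, with intervals apart. Of these, 85 and 122 moved at least 2-fold the same way in C1q-high cells and 87 and 90 in labelled cells, the genes at both ends among them. *Srp54c* went from 0 to 156 CPM in osteoclasts and from 1.36 to 231 in labelled cells, and *Tfdp1* from 53.2 to 0.710 and from 52.9 to 1.75. Of the 208 genes, 46 stood under 1.5-fold in both C1q-high and labelled cells, as did 51 of the 258, a split made after the values were seen. Among these, *Tgfbi* was at 25.4 CPM at E15.5 and 87.3 at E17.5, *Myc* at 9.90 and 27.0, *Bmp2* at 30.9 and 9.23 and the kinase *Tec* at 26.0 and 8.52.

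Of 276 listed genes 173 could be set side by side, with 22 higher at E17.5 and 18 lower. The acid secretion and V-ATPase lists had 0 of 9 and 0 of 14 in either direction. *Jdp2*, a partner of AP-1 factors in osteoclasts, was at 41.4 CPM (32.1 to 52.6) and 150 CPM (130 to 171), a log2 ratio of 1.85, beside 1.02 in C1q-high and 2.48 in labelled cells. *Oscar*, a collagen receptor of osteoclasts, had 4 and 33 UMIs, under the minimum for this comparison, and is not among the 173. It was at 2.47 CPM (0.674 to 6.33) and 23.4 CPM (16.1 to 32.9), with 14.9, 6.69 and 43.1 in the suffixes and 0 UMIs in C1q-high cells of both libraries. *Trem2* was at 47.6 and 112 CPM, a log2 ratio of 1.23 beside 0.13 and 1.00. *Igf1* was at 50.1 and 14.2 CPM, a log2 ratio of -1.79 beside 0.54 in C1q-high and -1.87 in labelled cells. Of the 10 osteoblast and fibroblast markers 5 could be compared. *Col1a1* (384 and 1273 CPM), *Col1a2*, *Ibsp* (30.3 and 105) and *Postn* were higher at E17.5 in the osteoclasts, while *Col3a1* stood at 321 and 451. Log2 ratios of the higher genes, in that order, were 1.73, 1.10, 1.78 and 1.45. Beside them stood 0.56, 0.14, -0.89 and 0.49 in C1q-high cells and 0.74, 0.36, 0.07 and 0.76 in labelled cells. The median per cell of the summed list was 396 and 2239 CPM in osteoclasts and 563 and 2445 in C1q-high cells. All 4 measured erythroid genes were lower, *Hbb-bt* at 899 and 47.6 CPM, and so were all 4 measured chondrocyte markers. The parts of RNA from lysed cells and of doublets in these values were not tested.

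The ligands of the osteoclast receptors were measured in the labelled clusters. *Tnfsf11*, which encodes RANKL, was highest in the osteogenic cluster OG3, at 19.3 CPM (12.5 to 28.5) from 25 UMIs at E15.5 and 13.8 CPM from 178 UMIs at E17.5, and osteoclasts held 0 and 1 UMIs. *Tnfrsf11b*, which encodes the RANKL decoy osteoprotegerin, was highest in the ectocranial cluster EC2, at 89.3 CPM (83.3 to 95.6) and 182 CPM (173 to 192), while OG3 held 0 UMIs at E15.5 and 2.17 CPM at E17.5. *Csf1* was spread more widely, at 37.1 CPM (27.4 to 49.2) in OG3 and 38.2 (18.3 to 70.2) in the meningeal cluster MG1 at E15.5, and at 30.0 (27.1 to 33.1) in OG3, 33.7 in EC2 and 40.1 in EC3 at E17.5. *Il34*, the other CSF1R ligand, was highest in OG2 at E15.5, at 18.04 CPM from 74 UMIs. At E17.5 it was highest in the meningeal cluster MG2, at 9.92 CPM from 48 UMIs, while OG2 held 7 UMIs (0.883 CPM). All labelled cells together held 3.17 CPM of *Il34* at E15.5 and 2.27 CPM at E17.5.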

How the data were processed

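Droplet single-cell RNA-seq (10x 3′ v2) of coronal sutures gave 1 deposited sample for E15.5 and 1 for E17.5, the latter from 3 batches with a library each. The authors deposited raw UMI counts per gene and barcode, which Cell Ranger made (3.1.0 by the E15.5 header) with mm10. The submitters' processing notes also name FastQC 0.11.7, MultiQC 0.9 and Seurat 3.2.0. From the metadata only cluster labels and library names were used, which for E15.5 matched 5335 of 5340 rows. Genes were matched by ID, 27514 of 31053 and 27998. The 2 lists differ, so a gene's reads may be assigned differently by stage.

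UMIs were summed over cells, with exact Poisson intervals for levels, Clopper-Pearson intervals for shares and exact conditional intervals for ratios (scipy 1.17.1 and numpy 2.4.6 under Python 3.11.15, with tables in pandas 2.3.3 and plots in matplotlib 3.10.9). With 1 sample a stage and no replicate of E15.5 there is no test. Doublets were scored by Scrublet in scanpy 1.11.5 (expected rate 0.06, high scores from the 94th percentile) and left in. The rule for calls was run on simulated Poisson counts, which hold no variation between cells or batches and so say nothing about errors from it. Where a group had 0 UMIs, a fold was computed against 3 UMIs in it. Between stages, genes needed 50 UMIs over both libraries.

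Members and lists were chosen with earlier results of these data known. Named genes were the listed genes, the 10 highest and 10 lowest against C1q-high cells by the smaller log2 ratio of both libraries with at least 50 UMIs, the 10 highest against all other kept cells, and the 5 highest and 5 lowest between stages. Alternatives changed the rule, depth, doublets, UMI minimum, fold limit and suffixes. Promoters came from RefSeq (GRCm38.p6), gene positions from GENCODE on GRCm38.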

Additional observations from a re-analysis of the deposited data

Results flagged for a closer look

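*Cma1*, a mast cell chymase, was lower at E17.5 in osteoclasts (45.2 and 15.6 CPM, a ratio of 0.346) and higher in C1q-high cells (41.9 and 88.9 CPM, a ratio of 2.12). A single C1q-high cell held 465 of the 559 *Cma1* UMIs at E17.5, and without the richest cell of each library the C1q-high values were 41.2 and 14.98 CPM, so the opposite direction rested on that cell. *Lyz2* was lower at E17.5 in osteoclasts (42.7 and 15.6 CPM, a ratio of 0.366) and higher in labelled cells (11.1 and 25.4 CPM, a ratio of 2.28). A single osteoclast held 59 of the 69 *Lyz2* UMIs of members at E15.5, so the opposite direction of *Lyz2* rested on that cell. The opposite directions were not tested, since each stage is 1 sample. Outside the filters on depth, mitochondrial and globin UMIs, 20 barcodes of E15.5 and 1 of E17.5 met the counts of the osteoclast rule, 13 of the former over a globin limit and 7 over the mitochondrial limit, with *Ctsk* at 3162 CPM in the 20.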

How the results depend on the processing

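No paired analysis was possible because each stage is 1 sample. With 77 and 61 cells, sparse genes such as *Itgb3* and *Calcr* are limited by counting error, and the counts of genes move with the number of cells and UMIs. Of the counts and values that answer a comparison, 144 stayed within their limits under the alternatives and 44 did not. These leave out the ratios of single genes. Of 514 log2 ratios of named genes to C1q-high cells, 181 left their interval with cells thinned to 3000 UMIs. The first suffix of E17.5 alone moved 108 and the second 84. At least 40 UMIs of *Acp5* and *Mmp9* moved 80, and leaving out high doublet scores moved 78. Each other alternative moved at most 71. The comparisons with C1q-high, Lyz2-high and labelled cells had 421, 418 and 1177 genes higher and 842, 500 and 2042 lower, the Ctsk-high group 43 and 29, and the stages 208 and 258. With the first suffix of E17.5 alone the ratio of shares was 1.18, or 0.754 of osteoclasts and C1q-high cells, and the counts were 261 higher against C1q-high cells, 85 higher and 127 lower against Lyz2-high cells, 13 and 6 for the Ctsk-high group and 84 higher between stages, while *Ostm1* turned from 1.28 to -0.18 (log2 ratio to C1q-high cells at E17.5). With the second alone the counts were 257 and 277 against Lyz2-high cells, 1315 lower against labelled cells and 22 and 7 for the Ctsk-high group. With the third they were 268 and 264, and 20 and 10. With cells thinned to 3000 UMIs they were 209 and 381 (C1q-high), 158 and 192 (Lyz2-high), 623 and 708 (labelled), 7 and 3 (Ctsk-high) and 47 and 39 (stages), and *Ostm1* at E15.5 turned from 1.07 to -1.66. A minimum of 100 UMIs gave 278 higher (C1q-high), 174 lower (Lyz2-high), 15 and 6 (Ctsk-high) and 125 and 132 (stages), and one of 10 UMIs 338 higher at E17.5. A limit of 1.5-fold gave 753 higher (C1q-high), 95 and 97 (Ctsk-high) and 375 and 527 (stages). For the Ctsk-high group, at least 10 UMIs of *Acp5* and *Mmp9* gave 15 lower, at least 40 gave 20 higher, no condition on *Atp6v0d2* gave 70 and 67, and a split by *Ctsk* UMIs per cell gave 16 lower. The cause was not tested beyond the fewer cells, UMIs or genes that an alternative leaves. The values of *Ckb* and *Cma1* without 1 cell, the macrophage sum without the C1q genes and the split of stage genes by other cells were added after seeing the data.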
